A study of Mus musculus with 12 samples.

Results

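The genes described here are 9 regulators of the cell cycle: the growth arrest and DNA damage genes Gadd45a, Gadd45b and Gadd45g, the cyclin-dependent kinase (CDK) inhibitor genes Cdkn1a, Cdkn1b, Cdkn2c and Cdkn2d, and the D-type cyclin genes Ccnd2 and Ccnd3. They were taken by symbol from a table of 50674 mouse genes, and all 9 were among the 17457 genes with enough counts to be tested. The set was selected on a measured value in part, since it was chosen by the rise of Gadd45b with stimulation in these same libraries, so the stimulation values of Gadd45b are given as a description without a test. Polyadenylated RNA was sequenced from natural killer (NK) cells, cytotoxic lymphocytes that were grown from mouse spleen with interleukin-2 (IL-2). Mirc11-/- cells, which lack the microRNA cluster encoding miR-23a, miR-27a and miR-24-2, were set beside wild-type cells. Cells of each genotype were either stimulated for 6 h through NKG2D, an activating receptor, or left unstimulated. The 4 groups were thus stimulated Mirc11-/- cells, unstimulated Mirc11-/- cells, stimulated wild-type cells and unstimulated wild-type cells, each with 3 libraries given as biological replicates, and the strain label of all 12 was C57BL/6. The sources used here do not give how the allele was made, the age and sex of the mice, the purity of the cultures or the stimulating agent beyond its receptor.

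Gadd45 proteins are small stress-inducible proteins that bind CDK1, PCNA, p21 and the MAP kinase kinase kinase MEKK4, and Gadd45b and Gadd45g are known in lymphocytes for their link to p38 signalling and cytokine production. Cdkn1a encodes p21 and Cdkn1b encodes p27, the Cip/Kip inhibitors that bind cyclin-CDK complexes; Cdkn2c encodes p18 and Cdkn2d encodes p19, INK4 inhibitors that bind CDK4 and CDK6. The D-type cyclins activate CDK4 and CDK6, which phosphorylate the retinoblastoma protein and so open the way into S phase, and cyclin D2 is a known IL-2-responsive cyclin of lymphocytes. NK cells grown in IL-2 divide in culture.

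The mature microRNAs of the deleted cluster are shown because a gene with a matching site in its 3' untranslated region (UTR) is a possible direct target. Sequences are from RefSeq on GRCm38.p6, all on the plus strand, with the seed (bases 2 to 8) in capitals. MiR-23a-3p lies at chr8:84208563-84208583, miR-27a-3p at chr8:84208727-84208747 and miR-24-3p of Mir24-2 at chr8:84208875-84208896.
miR-23a-3p: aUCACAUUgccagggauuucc
miR-27a-3p: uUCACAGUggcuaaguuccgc
miR-24-3p: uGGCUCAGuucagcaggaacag
A second gene, Mir24-1 at chr13:63301251-63301272, encodes the same mature miR-24-3p, and Mir27b at chr13:63300760-63300780 encodes a microRNA with the seed of miR-27a. Both lie outside the deleted cluster. Other microRNA genes with these seeds, including the seed of miR-23a, were not searched for.
miR-27b-3p: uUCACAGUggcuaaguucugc

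Of the 9 genes, 2 held a 7-base match to bases 2 to 8 of a deleted microRNA in an annotated 3' UTR (AATGTGA for miR-23a-3p, ACTGTGA for miR-27a-3p, CTGAGCC for miR-24-3p, searched on the transcript strand, GENCODE vM21). Over all 20874 genes with an annotated 3' UTR, 36.5% held a match to at least 1 of the 3. The Cdkn1b match to miR-24-3p lies at chr6:134925425-134925431 on the plus strand of GRCm38, in a 3' UTR of 3439 bases, and is present in 2 of its 3 transcripts with an annotated 3' UTR. The Cdkn2d match to miR-23a-3p lies at chr9:21288973-21288979 on the minus strand, in a 3' UTR of 907 bases, and in 1 of 2 transcripts. Each is printed with 10 flanking bases on either side, 5' to 3' on the transcript strand, with the match in capitals.
Cdkn1b: aggttgcataCTGAGCCaagtataatt
Cdkn2d: tgatgatcccAATGTGAcccaaggcca
The other 7 genes held no such match in their longest annotated 3' UTR, which says only that these letters are not in that window. A match is a sequence feature and does not show that the microRNA acts there.

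Library totals ranged from 15139281 to 25342991 counts. Mir27a, the cluster gene with the most counts, had 0 counts in each of the 6 Mirc11-/- libraries, against 1, 0 and 4 counts in stimulated wild-type libraries and 2, 3 and 3 counts in unstimulated wild-type libraries; polyadenylated RNA captures microRNA genes poorly. All 10 NK cell markers (Ncr1, Klrb1c, Eomes and others) were counted in every library. Stimulated Mirc11-/- replicate 1 stood apart from replicates 2 and 3 of its group. Its counts differed from theirs by a chi-square of 49.0 and 40.9 per gene, where replicates 2 and 3 differed by 5.22. Reads on 332 vomeronasal receptor genes, which NK cells are not known to use and which serve here as a measure of background reads, summed to 57.7 CPM (counts scaled to 1000000 per library) in that library and to 33.0 and 39.0 CPM in the other 2. They summed to 10.6 to 12.9 CPM in unstimulated Mirc11-/- libraries, 17.3 to 29.6 CPM in stimulated wild-type libraries and 9.89 to 12.5 CPM in unstimulated wild-type libraries. Stimulated wild-type replicate 1 also differed from the others of its group, by a chi-square of 30.1 and 36.5 per gene where replicates 2 and 3 differed by 14.7, and had the 29.6 CPM. Leaving it out changed 1 call on the 9 genes, that of Cdkn1a between genotypes in unstimulated cells. The fold changes and counts of calls below were also computed without stimulated Mirc11-/- replicate 1 and with the log2 vomeronasal level as a covariate; family shares, ratios and likeness to Gadd45b were not. This level did not overlap between stimulated Mirc11-/- libraries and any other group, nor between stimulated and unstimulated wild-type libraries. In these comparisons the covariate and the group therefore cannot be fully told apart.

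Markers of other cells were low, and those of B cells, dendritic cells, and macrophages and monocytes were higher in stimulated libraries. The 6 B cell markers summed to 103 to 115 CPM in stimulated and 64.6 to 73.5 CPM in unstimulated Mirc11-/- libraries, and to 105 to 129 CPM in stimulated and 57.4 to 72.1 CPM in unstimulated wild-type libraries, most of it Ighm. Pax5, a defining B cell gene, stood at 0.618 to 1.28 CPM in stimulated and at most 0.0552 CPM in unstimulated Mirc11-/- libraries, and at 0.203 to 0.326 CPM in stimulated wild-type libraries and 0 in all 3 unstimulated ones. The 10 NK markers summed to 4684 to 7685 CPM in stimulated and 13376 to 14960 CPM in unstimulated Mirc11-/- libraries, and to 8617 to 10132 CPM in stimulated and 12663 to 15183 CPM in unstimulated wild-type libraries. They did not all move the same way. By the edgeR test described below, stimulation in Mirc11-/- cells raised 1 and lowered 7 of the 10, where 23.5% and 22.1% of all tested genes were called. In wild-type cells it raised 3 and lowered 7, where 16.1% and 15.7% were called. The 7 T cell markers summed to 62.1 to 82.5 and 56.6 to 99.0 CPM in stimulated and unstimulated Mirc11-/- libraries, and to 36.4 to 57.4 and 33.5 to 55.3 CPM in stimulated and unstimulated wild-type libraries. The 6 dendritic cell markers summed to 22.3 to 33.0 CPM in stimulated and 10.48 to 14.1 CPM in unstimulated Mirc11-/- libraries, and to 24.8 to 28.4 CPM in stimulated and 10.1 to 14.8 CPM in unstimulated wild-type libraries. Thus the B cell and dendritic cell sums did not overlap between states in either genotype, while the T cell sums did. The 7 macrophage and monocyte markers summed to 6.03 to 8.54 and 2.33 to 4.80 CPM in stimulated and unstimulated Mirc11-/- libraries, and to 8.03 to 10.01 and 5.37 to 6.70 CPM in stimulated and unstimulated wild-type libraries. The 6 neutrophil markers summed to 11.01 to 20.7 and 11.5 to 13.3 CPM in stimulated and unstimulated Mirc11-/- libraries, and to 9.94 to 11.1 and 11.2 to 13.1 CPM in stimulated and unstimulated wild-type libraries. The macrophage and monocyte sums also did not overlap between states in either genotype. The part of these other cells in the results below was not tested. In bulk RNA, fewer cells of a type and less RNA per cell cannot be told apart.

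Stimulation lowered the D-type cyclin transcripts and raised the p27 transcript in both genotypes. P values are from the quasi-likelihood test of edgeR with Benjamini-Hochberg adjustment over all 17457 genes, two-sided with a threshold of 0.05, and measure the spread between the labelled replicates. In Mirc11-/- cells 2 of the 8 genes other than Gadd45b were higher after stimulation (Gadd45a, Cdkn1b), where 23.5% of all tested genes were, and 3 were lower (Cdkn1a, Ccnd2, Ccnd3), where 22.1% were. In wild-type cells 2 of the 8 were higher (Gadd45g, Cdkn1b), against 16.1% of all tested genes, and 2 were lower (Ccnd2, Ccnd3), against 15.7%. The set was chosen with stimulation values in view, so nothing is read from these shares. The 2 stimulation comparisons share no library with each other, while each genotype comparison shares its libraries with both.

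Between genotypes the calls were in stimulated cells. In stimulated Mirc11-/- cells 1 of the 9 genes was higher than in stimulated wild-type cells (Gadd45a), against 3.89% of all tested genes, and 3 were lower (Gadd45g, Cdkn1a, Ccnd2), against 5.13%. In unstimulated cells 0 of 9 were higher and 0 of 9 lower by edgeR, against 0.309% and 0.796% of all tested genes. There, 4 of the 9 (Gadd45g, Cdkn1a, Ccnd2, Ccnd3) had an unadjusted edgeR p under 0.05, as did 1607 of all 17457 tested genes. The Wald test of DESeq2 called 2 of the 9 lower (Cdkn1a, Ccnd2), against 277 of all genes. The difference between the stimulation responses of the genotypes was past the threshold for 0 of the 8 genes other than Gadd45b by edgeR and for 0 of 8 by DESeq2, against 0.0115% of all tested genes by edgeR in either direction. Only Gadd45g and Cdkn1a of the 8 had an unadjusted edgeR p under 0.05 for this difference, as did 1858 of all 17457 tested genes. The genotype differences in stimulated cells were therefore not shown to differ from those in unstimulated cells.

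**Figure D1:**
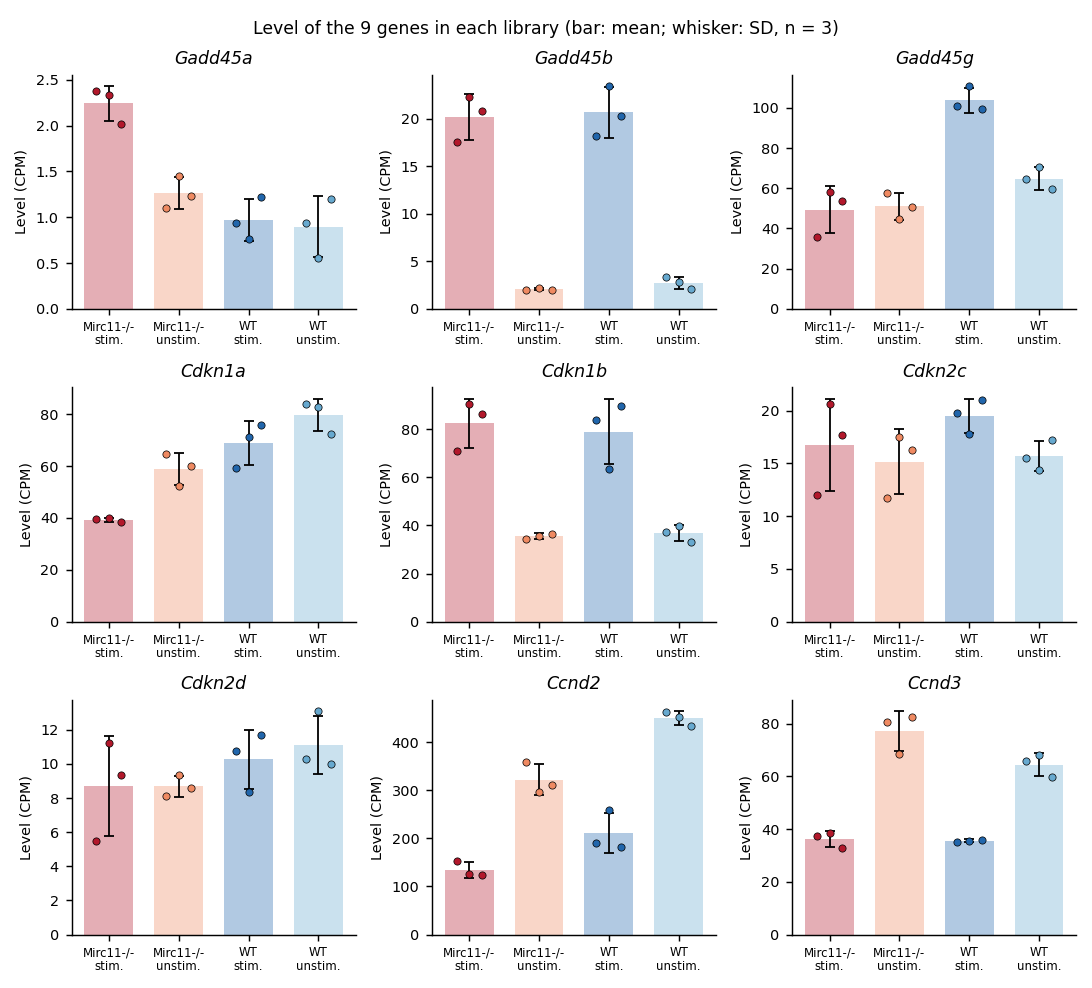
Level of the 9 genes (y axis, CPM) in stimulated and unstimulated Mirc11-/- cells and in stimulated and unstimulated wild-type (WT) cells; points are libraries, bars are means and whiskers are SDs of 3 libraries. Gadd45b and Cdkn1b stand higher and Ccnd2 and Ccnd3 lower in the stimulated libraries of both genotypes, while Gadd45g reaches 99.5 to 111 CPM in stimulated wild-type libraries only.

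Gadd45b (ENSMUSG00000015312, chr10:80930073-80932204, plus strand, GRCm38) carried the stimulation rise for which the set was picked. Its level was 17.6, 22.3 and 20.8 CPM in stimulated and 1.99, 2.21 and 1.99 CPM in unstimulated Mirc11-/- libraries. In wild-type cells it was 18.2, 23.5 and 20.3 CPM in stimulated and 3.34, 2.80 and 2.04 CPM in unstimulated libraries. Every stimulated library thus stood well above every unstimulated one. The fitted log2 fold changes were 3.29 ± 0.181 (SE) in Mirc11-/- cells and 2.92 ± 0.169 in wild-type cells, which are 9.80-fold and 7.57-fold. The level after stimulation did not separate the genotypes, with 20.2 ± 2.43 CPM in stimulated Mirc11-/- cells and 20.7 ± 2.66 CPM in stimulated wild-type cells (SD, n = 3 each; log2 fold change -0.03, 95% interval -0.35 to 0.29, edgeR adjusted p = 0.91). In unstimulated cells the difference was -0.40 on the log2 scale, with a 95% interval of -0.83 to 0.02 and an edgeR adjusted p of 0.597, and the libraries overlapped. The fitted difference between the genotypes' stimulation responses was 0.37 on the log2 scale (95% interval -0.16 to 0.91), given without a test. With the vomeronasal level as covariate the stimulation log2 fold changes were 4.11 in Mirc11-/- cells and 3.36 in wild-type cells, and without stimulated Mirc11-/- replicate 1 that in Mirc11-/- cells was 3.39.

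Gadd45g (ENSMUSG00000021453, chr13:51846678-51848468, plus strand) was the most abundant of the 3 Gadd45 transcripts per length in every library, and after stimulation it stood lower in Mirc11-/- than in wild-type cells. Its level was 35.9, 58.3 and 53.7 CPM in stimulated and 57.9, 44.5 and 50.6 CPM in unstimulated Mirc11-/- libraries. In wild-type cells it was 101, 111 and 99.5 CPM in stimulated and 64.5, 70.6 and 59.5 CPM in unstimulated libraries. The Mirc11-/- groups overlapped each other, and all 6 Mirc11-/- libraries lay below all 6 wild-type libraries. Gadd45g rose with stimulation in wild-type cells (log2 fold change 0.68 ± 0.149, edgeR adjusted p = 0.00374). In Mirc11-/- cells its log2 fold change was -0.05 ± 0.151 (95% interval -0.38 to 0.28, edgeR adjusted p = 0.811). In stimulated cells Gadd45g was lower in Mirc11-/- than in wild-type cells by a log2 fold change of -1.07 ± 0.151, or 2.11-fold (edgeR adjusted p = 0.00165). In unstimulated cells the difference was -0.35 (95% interval -0.67 to -0.02, edgeR adjusted p = 0.496). The test of the difference between the responses gave -0.73 ± 0.212, with an unadjusted p of 0.00423 and an edgeR adjusted p of 0.384. Without stimulated Mirc11-/- replicate 1, the lowest library, the genotype difference in stimulated cells was -0.89 and stayed past the threshold. The stimulation log2 fold change in Mirc11-/- cells was then 0.14. With the vomeronasal covariate the genotype difference in stimulated cells was -0.60 and the call ended. The same covariate put the stimulation log2 fold change in Mirc11-/- cells at 0.84, not past the threshold, and that in wild-type cells at 1.18, past it.

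Gadd45a (ENSMUSG00000036390, chr6:67035096-67037457, minus strand), a p53 target in other settings, was the lowest of the 3 and rested on few reads. It had 41, 40 and 36 counts in stimulated and 20, 23 and 21 counts in unstimulated Mirc11-/- libraries. Wild-type libraries held 20, 15 and 24 counts of it after stimulation and 24, 10 and 30 without. In CPM these were 2.38, 2.33 and 2.02 in stimulated and 1.10, 1.45 and 1.23 in unstimulated Mirc11-/- libraries, against 0.931, 0.765 and 1.22 in stimulated and 0.942, 0.549 and 1.20 in unstimulated wild-type libraries. Only the stimulated Mirc11-/- libraries stood apart, above all the others. Gadd45a rose with stimulation in Mirc11-/- cells (log2 fold change 0.83 ± 0.289, edgeR adjusted p = 0.0304) and was higher in Mirc11-/- than in wild-type stimulated cells (1.20 ± 0.291, edgeR adjusted p = 0.0251). In wild-type cells the stimulation log2 fold change was 0.09 (95% interval -0.57 to 0.74), and the difference between the responses was 0.74 (edgeR adjusted p = 0.495). Both calls were fragile. The stimulation call ended without stimulated Mirc11-/- replicate 1 (0.79) or 2 (0.79), without unstimulated Mirc11-/- replicate 1 (0.73) or 3 (0.80), with no low-count filter (0.73) and with the covariate (0.36). The genotype call ended without stimulated Mirc11-/- replicate 1 (1.16), without stimulated wild-type replicate 2 (1.05) and with the covariate (0.94). A transcript on the opposite strand, E230016M11Rik, shares 337 bases with Gadd45a, 19.1% of its exon length, and held 3 to 24 counts per library; with the strand setting not given in the sources used here, their reads could not be told apart.

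The makeup of the Gadd45 family differed between the states. Per kilobase (kb) of exon, Gadd45b made up 21.6 to 25.7% of the summed Gadd45 level in stimulated Mirc11-/- libraries and 2.44 to 3.46% in unstimulated ones. In wild-type cells it made up 11.7 to 13.5% in stimulated and 2.44 to 3.64% in unstimulated libraries. The stimulated Mirc11-/- share lay above the stimulated wild-type share in every library, where Gadd45b levels overlapped and Gadd45g levels were lower in Mirc11-/- cells. The summed family level was 43.0 to 65.0 CPM per kb in stimulated and 40.2 to 51.2 in unstimulated Mirc11-/- libraries, against 98.1 to 110 CPM per kb in stimulated and 52.7 to 62.3 in unstimulated wild-type libraries. With the longest coding transcript as the length, the Gadd45b share averaged 25.1% in stimulated Mirc11-/- cells and 14.1% in stimulated wild-type cells. These shares include the values that chose the set and are a description.

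**Figure D2:**
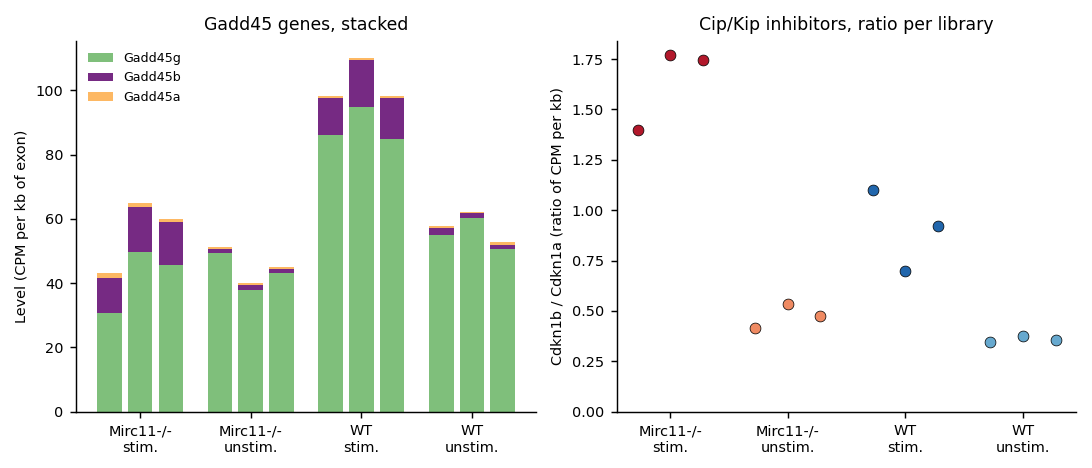
Left, Gadd45a, Gadd45b and Gadd45g levels stacked for each library (y axis, CPM per kb of exon); right, the ratio of Cdkn1b to Cdkn1a (ratio of CPM per kb) in each library, for stimulated and unstimulated Mirc11-/- and wild-type (WT) cells. Gadd45b makes up 21.6 to 25.7% of the stack in stimulated Mirc11-/- libraries and 11.7 to 13.5% in stimulated wild-type libraries, and the Cdkn1b to Cdkn1a ratio is 1.40 to 1.77 in stimulated Mirc11-/- libraries and at most 1.10 in the others.

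Among the Cip/Kip inhibitors, the p27 transcript rose and the p21 transcript did not rise. Cdkn1b (ENSMUSG00000003031, chr6:134920401-134925513, plus strand) stood at 70.8, 90.4 and 86.1 CPM in stimulated and 34.2, 35.7 and 36.6 CPM in unstimulated Mirc11-/- libraries. In wild-type cells it stood at 83.7, 63.6 and 89.5 CPM in stimulated and 37.2, 39.9 and 33.2 CPM in unstimulated libraries. No stimulated library overlapped an unstimulated one. Cdkn1b rose 2.32-fold in Mirc11-/- cells (log2 fold change 1.22 ± 0.127, edgeR adjusted p = 7.89e-06) and 2.15-fold in wild-type cells (1.10 ± 0.126, edgeR adjusted p = 2.74e-05). Both calls held without stimulated Mirc11-/- replicate 1 (1.32 in Mirc11-/- cells) and with the vomeronasal covariate, where the log2 fold changes were 1.43 in Mirc11-/- cells and 1.23 in wild-type cells. Cdkn1b holds the miR-24-3p match printed above, and the Mirc11-/- and wild-type levels overlapped in both states. The genotype difference was 0.06 on the log2 scale in stimulated cells (95% interval -0.20 to 0.33, edgeR adjusted p = 0.758) and -0.05 in unstimulated cells (95% interval -0.32 to 0.22, edgeR adjusted p = 0.984).

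Cdkn1a (ENSMUSG00000023067, chr17:29090976-29100727, plus strand), the p53-responsive inhibitor, was lowest in stimulated Mirc11-/- cells. Its level was 39.5, 39.9 and 38.5 CPM in stimulated and 64.5, 52.2 and 60.1 CPM in unstimulated Mirc11-/- libraries. In wild-type cells it was 59.4, 71.4 and 75.8 CPM in stimulated and 84.0, 82.7 and 72.5 CPM in unstimulated libraries. The Mirc11-/- libraries lay below the wild-type libraries of the same state in both states, and the wild-type states overlapped each other. Cdkn1a fell with stimulation in Mirc11-/- cells (log2 fold change -0.58 ± 0.105, edgeR adjusted p = 0.00057) and was lower in stimulated Mirc11-/- than in stimulated wild-type cells (-0.81 ± 0.105, or 1.75-fold, edgeR adjusted p = 0.000927). The stimulation log2 fold change in wild-type cells was -0.21 (95% interval -0.43 to 0.01, edgeR adjusted p = 0.134). In unstimulated cells the genotype difference was -0.44 (95% interval -0.66 to -0.21) with an edgeR adjusted p of 0.069, just outside the threshold. It passed with DESeq2 (-0.44), without the low-count filter (-0.46), with no composition factor (-0.44), with the covariate (-0.39) and without stimulated Mirc11-/- replicate 1 (-0.45) or stimulated wild-type replicate 1 (-0.44), which are in neither group of that comparison. The difference between the responses was -0.37, with an edgeR adjusted p of 0.445. With the covariate the fall in Mirc11-/- cells was -0.07 and the genotype difference in stimulated cells -0.52, and neither passed; without stimulated Mirc11-/- replicate 1 both stayed past the threshold.

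The balance of p27 to p21 transcripts followed from these values. Per kb of exon, the ratio of Cdkn1b to Cdkn1a was 1.40 to 1.77 in stimulated and 0.413 to 0.534 in unstimulated Mirc11-/- libraries. In wild-type cells it was 0.696 to 1.10 in stimulated and 0.345 to 0.377 in unstimulated libraries. The 4 groups did not overlap, in the order stimulated Mirc11-/-, stimulated wild-type, unstimulated Mirc11-/- and unstimulated wild-type. The size of the ratio depends on the gene length used: with the longest coding transcript it was 0.819 to 1.04 and 0.242 to 0.312 in stimulated and unstimulated Mirc11-/- libraries, and 0.407 to 0.644 and 0.202 to 0.221 in stimulated and unstimulated wild-type libraries, in the same order.

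The INK4 inhibitors moved little. Cdkn2c (ENSMUSG00000028551, chr4:109660876-109667189, minus strand) stood at 11.998, 20.6 and 17.6 CPM in stimulated and 11.7, 17.5 and 16.2 CPM in unstimulated Mirc11-/- libraries, and at 19.7, 17.7 and 21.0 CPM in stimulated and 15.5, 14.4 and 17.2 CPM in unstimulated wild-type libraries. The Mirc11-/- groups overlapped, while the 3 stimulated wild-type libraries lay just above the 3 unstimulated ones. The stimulation log2 fold change was 0.15 in Mirc11-/- cells (95% interval -0.25 to 0.54, edgeR adjusted p = 0.538) and 0.31 in wild-type cells (95% interval -0.08 to 0.69, edgeR adjusted p = 0.21). With the replicate block within genotype, where it is not settled that the numbers pair libraries, the wild-type change of Cdkn2c was 0.31 and passed the threshold. P18, which Cdkn2c encodes, is known as a brake on lymphocyte proliferation. Cdkn2d (ENSMUSG00000096472, chr9:21288410-21291407, minus strand) stood at 5.51, 11.2 and 9.32 CPM in stimulated and 8.11, 9.33 and 8.61 CPM in unstimulated Mirc11-/- libraries, and at 10.8, 8.36 and 11.7 CPM in stimulated and 10.3, 13.1 and 10.02 CPM in unstimulated wild-type libraries. In unstimulated cells the Mirc11-/- libraries of Cdkn2d lay below the wild-type ones, and in stimulated cells the genotypes overlapped. Stimulated and unstimulated libraries of Cdkn2d overlapped in both genotypes. Its stimulation log2 fold changes were 0.00 (95% interval -0.46 to 0.47) in Mirc11-/- cells and -0.11 (95% interval -0.56 to 0.34) in wild-type cells. Cdkn2d holds the miR-23a-3p match, and its genotype differences were -0.24 (95% interval -0.70 to 0.22) in stimulated and -0.35 (95% interval -0.81 to 0.10) in unstimulated cells, with edgeR adjusted p values of 0.451 and 0.72. For Cdkn2c they were -0.22 (95% interval -0.61 to 0.17) and -0.06 (95% interval -0.45 to 0.33).

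**Figure D3:**
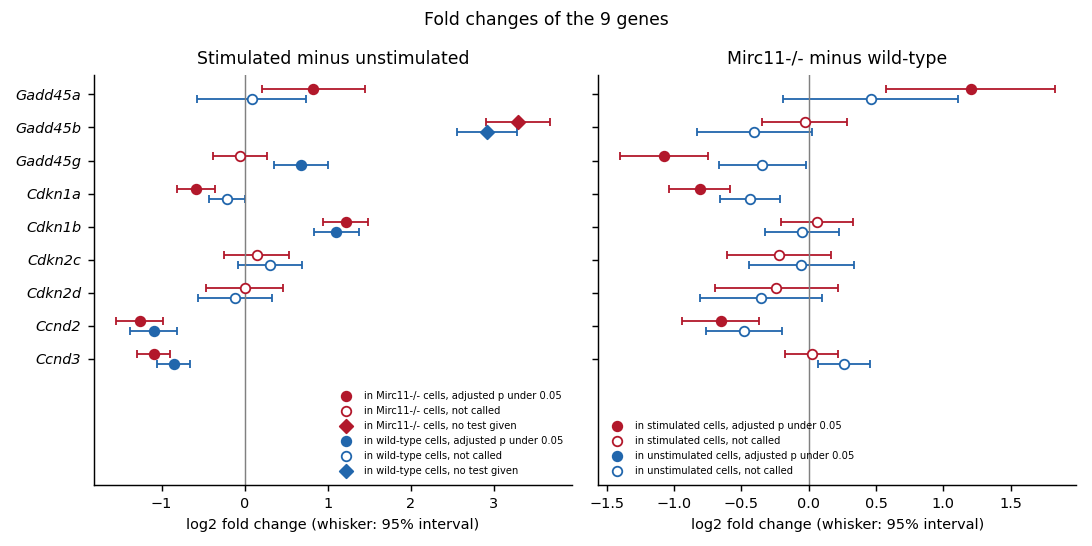
Log2 fold changes of the 9 genes (x axis; whiskers are 95% intervals) for stimulated over unstimulated cells of each genotype (left) and for Mirc11-/- over wild-type cells in each state (right); filled points passed the edgeR adjusted p threshold of 0.05, open points did not, and the diamonds in the left panel mark Gadd45b, given there without a test. Cdkn1b lies above 0 and Ccnd2 and Ccnd3 below 0 for stimulation in both genotypes, and in the right panel only stimulated-state points are filled.

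Both D-type cyclin transcripts fell with stimulation. Ccnd2 (ENSMUSG00000000184, chr6:127125162-127152193, minus strand) stood at 153, 125 and 124 CPM in stimulated and 359, 297 and 311 CPM in unstimulated Mirc11-/- libraries, and at 191, 258 and 183 CPM in stimulated and 463, 453 and 435 CPM in unstimulated wild-type libraries. All 4 groups stood apart, with stimulated below unstimulated and Mirc11-/- below wild-type within each state. Ccnd2 fell 2.40-fold with stimulation in Mirc11-/- cells (log2 fold change -1.26 ± 0.133, edgeR adjusted p = 8.19e-06) and 2.13-fold in wild-type cells (-1.09 ± 0.132, edgeR adjusted p = 4.25e-05). It was lower in stimulated Mirc11-/- than in stimulated wild-type cells (-0.65 ± 0.132, or 1.57-fold, edgeR adjusted p = 0.0115), and the difference in unstimulated cells was -0.48 (95% interval -0.76 to -0.20, edgeR adjusted p = 0.121). The difference between the responses was -0.17 (95% interval -0.57 to 0.23). The genotype call in stimulated cells ended without stimulated wild-type replicate 2 (-0.49), the highest of its group, and with the covariate (-0.60), and it held without stimulated Mirc11-/- replicate 1 (-0.76). The covariate also took the fall in Mirc11-/- cells out of the calls, at -1.16, while the fall in wild-type cells stayed in at -1.04. In unstimulated cells the genotype difference of Ccnd2 passed with DESeq2 (-0.49), without the low-count filter (-0.51), without stimulated Mirc11-/- replicate 1 (-0.49) and without stimulated wild-type replicate 2 (-0.48).

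Ccnd3 (ENSMUSG00000034165, chr17:47505051-47599691, plus strand) fell in both genotypes, and its stimulated levels overlapped between them. It stood at 37.3, 38.5 and 32.7 CPM in stimulated and 80.5, 68.7 and 82.5 CPM in unstimulated Mirc11-/- libraries, and at 35.1, 35.7 and 36.1 CPM in stimulated and 65.7, 68.0 and 59.6 CPM in unstimulated wild-type libraries. Stimulated libraries lay far below unstimulated ones in both genotypes. The fall was 2.14-fold in Mirc11-/- cells (log2 fold change -1.10 ± 0.0927, edgeR adjusted p = 1.19e-06) and 1.81-fold in wild-type cells (-0.86 ± 0.092, edgeR adjusted p = 1.62e-05). Both falls stayed past the threshold with the covariate, at -0.94 in Mirc11-/- cells and -0.77 in wild-type cells, and without stimulated Mirc11-/- replicate 1. Between the stimulated levels of the genotypes the difference was small (log2 fold change 0.02, 95% interval -0.18 to 0.22, edgeR adjusted p = 0.897). In unstimulated cells the Mirc11-/- libraries lay just above the wild-type ones (0.26, 95% interval 0.07 to 0.46, edgeR adjusted p = 0.283), the opposite side from Ccnd2. Bysl, on the opposite strand, shares 361 bases with Ccnd3, 4.11% of its exon length, and held 238 to 724 counts per library. The third D-type cyclin gene, Ccnd1, had 18 to 77 counts per library, and its stimulation log2 fold changes were -0.06 in Mirc11-/- cells and -0.65 in wild-type cells, neither past the threshold.

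**Figure D4:**
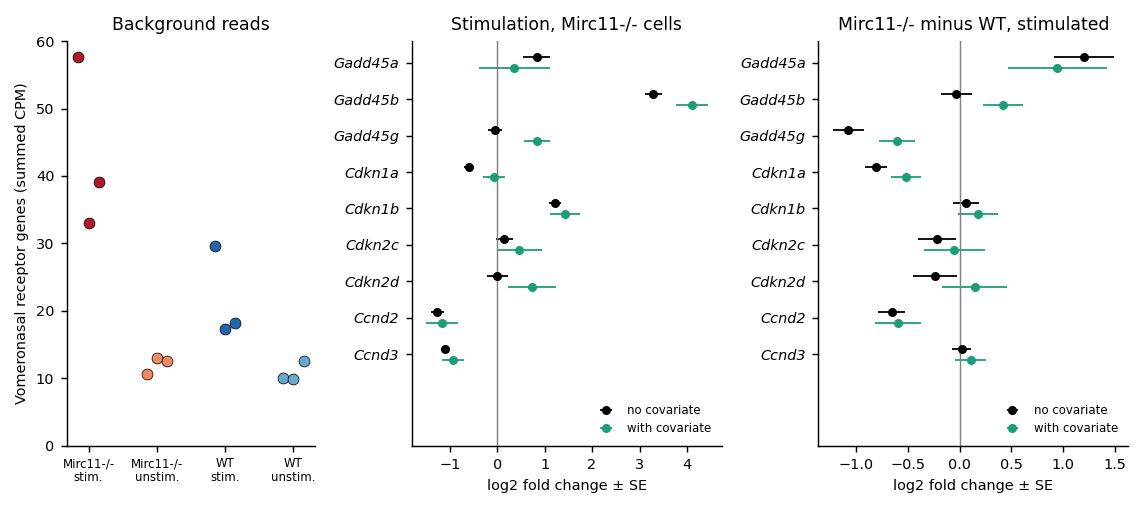
Left, summed level of 332 vomeronasal receptor genes (y axis, CPM) in each library of stimulated and unstimulated Mirc11-/- and wild-type (WT) cells; middle and right, log2 fold changes ± SE of the 9 genes without and with the log2 of that level as a covariate. The level is 33.0 to 57.7 CPM in stimulated Mirc11-/- libraries and 9.89 to 29.6 CPM in wild-type libraries, and with the covariate Cdkn1b stays at 1.43 for stimulation in Mirc11-/- cells while Cdkn1a moves to -0.07.

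The other INK4 genes gave a genotype difference of the same kind as Cdkn1a. Cdkn2a, which encodes p16 and the p53 regulator Arf, stood at 4.06, 5.19 and 5.22 CPM in stimulated and 8.88, 8.26 and 7.73 CPM in unstimulated Mirc11-/- libraries, and at 8.01, 10.6 and 9.60 CPM in stimulated and 11.9, 12.5 and 9.70 CPM in unstimulated wild-type libraries. It fell with stimulation in Mirc11-/- cells (log2 fold change -0.78 ± 0.157, edgeR adjusted p = 0.00123) and was lower in stimulated Mirc11-/- than in stimulated wild-type cells (-0.96 ± 0.154, edgeR adjusted p = 0.00336). Cdkn2b, which encodes p15, was 16.1, 20.3 and 23.2 CPM in stimulated Mirc11-/- libraries and 33.5, 45.2 and 34.0 CPM in stimulated wild-type libraries, with no overlap (-0.92 ± 0.187, edgeR adjusted p = 0.0135). With the covariate 0 of the 4 tested genes of this list, which also held Cdkn3 and Cdkn2aip, differed between genotypes in stimulated cells, and without stimulated Mirc11-/- replicate 1 the count was 1. Over all tested genes 5.13% were lower in that comparison in the main fit. With the covariate 24 of all genes were lower, and without that replicate 505 were. Cdkn1c, encoding p57, had 0 to 6 counts per library and was not tested.

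Most genes of the G1 list were lower after stimulation. Over all tested genes 22.1% fell and 23.5% rose in Mirc11-/- cells, and 15.7% fell and 16.1% rose in wild-type cells. Of 18 G1 cyclin, CDK, E2F and pocket protein genes, 13 fell and 2 rose with stimulation in Mirc11-/- cells, with a median log2 fold change of -0.78, and 12 fell and 2 rose in wild-type cells, with a median of -0.57; over all tested genes the medians were 0.03 and 0.02. Tfdp1, the dimer partner of E2F factors, fell by 1.28 on the log2 scale in Mirc11-/- cells and by 1.08 in wild-type cells (edgeR adjusted p = 1.22e-06 and 7.81e-06). Cdc25a, the phosphatase that activates CDK2, fell by 1.15 in Mirc11-/- cells and by 0.94 in wild-type cells, while E2f4 fell by 0.82 in Mirc11-/- cells and the cyclin E gene Ccne1 fell by 1.06 in wild-type cells. Tfdp2 and the quiescence pocket protein gene Rbl2 were the 2 that rose: Tfdp2 by 0.98 in Mirc11-/- cells and 0.82 in wild-type cells, and Rbl2 by 0.30 in Mirc11-/- cells and 0.36 in wild-type cells, on the log2 scale. The CDK genes Cdk4 and Cdk6, partners of the D-type cyclins, fell in both genotypes, and Cdk6 was lower in stimulated Mirc11-/- than in stimulated wild-type cells (log2 fold change -0.60 ± 0.117, edgeR adjusted p = 0.00985), a call that ended with the covariate. For stimulation with the covariate the G1 calls in Mirc11-/- cells were 1 higher and 2 lower, at a median of -0.85. In wild-type cells they were 1 higher and 9 lower. Over all genes that fit called 380 higher and 340 lower in Mirc11-/- cells, and 1983 higher and 1855 lower in wild-type cells.

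All 11 genes of the MCM helicase and origin licensing fell with stimulation in both genotypes. Over all tested genes 22.1% fell in Mirc11-/- cells and 15.7% in wild-type cells. The medians of the 11 were -1.12 on the log2 scale in Mirc11-/- cells and -0.85 in wild-type cells. Cdc6, which loads the helicase, fell by 1.85 in Mirc11-/- cells and by 1.57 in wild-type cells (edgeR adjusted p = 6.16e-07 and 3.57e-06), and the helicase subunit gene Mcm3 fell by 1.54 and by 1.29. All 11 were also lower without stimulated Mirc11-/- replicate 1. With the covariate 4 of 11 were lower in Mirc11-/- cells and 7 of 11 in wild-type cells. That fit called 340 of all genes lower in Mirc11-/- cells and 1855 in wild-type cells. None of the 11 differed between genotypes past the edgeR threshold in either state. In unstimulated cells 7 had an unadjusted edgeR p under 0.05, at a median of 0.30, and in stimulated cells 0 did. Of all 17457 tested genes, 1607 did in unstimulated and 5257 in stimulated cells. Of 9 genes for mitotic and PCNA-type partners of Gadd45 proteins, 2 fell in Mirc11-/- cells (Pcna by 1.02 and Cdk1 by 0.71 on the log2 scale). In wild-type cells 1 of the 9 fell (Pcna by 0.63). These counts stand beside the 22.1% and 15.7% of all tested genes that fell. With the replicate block 5 of these 9 were lower in wild-type cells, without stimulated Mirc11-/- replicate 1 3 of 9 were lower there, and with the covariate 0 of 9 were lower in either genotype.

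**Figure D5:**
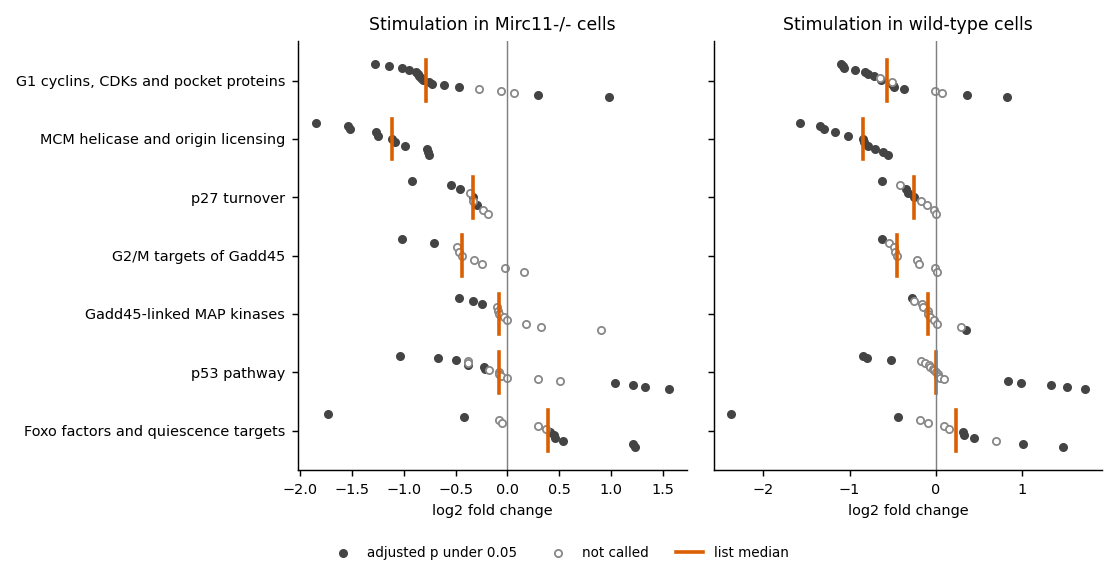
Log2 fold changes with stimulation (x axis) of the genes of 7 cell-cycle and stress lists in Mirc11-/- cells (left) and wild-type cells (right), with a point for each gene, filled where the edgeR adjusted p was under 0.05, and an orange line at the list's median. The G1 and MCM lists lie mostly below 0, with medians of -0.78 and -1.12 in Mirc11-/- cells and -0.57 and -0.85 in wild-type cells, and the Foxo list has medians of 0.39 and 0.23.

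Genes that act on the p27 protein were also examined, since Cdkn1b is controlled largely after translation. Of 9 such genes, 5 fell in Mirc11-/- cells and 4 in wild-type cells, where 22.1% and 15.7% of all tested genes fell, and 0 rose. Akt1, a kinase that phosphorylates p27 and Foxo factors, fell by 0.54 in Mirc11-/- cells and by 0.32 in wild-type cells on the log2 scale (edgeR adjusted p = 0.000247 and 0.0122). Cks1b, the cofactor with which the Skp2 ubiquitin ligase recognises p27, fell by 0.93 and by 0.62, and the ligase scaffold Cul1 by 0.45 and by 0.26. With the covariate 0 of 9 were lower in Mirc11-/- cells and 1 of 9 in wild-type cells. Foxo factors, which drive Cdkn1b transcription in other cells, were examined with their quiescence targets: of 12 genes, 6 rose and 2 fell in Mirc11-/- cells, and 5 rose and 2 fell in wild-type cells, where with no composition factor 3 rose and 3 fell. Over all tested genes 23.5% rose in Mirc11-/- cells and 16.1% in wild-type cells. Ccng2, encoding the arrest-linked cyclin G2, rose by 1.23 in Mirc11-/- cells and 1.47 in wild-type cells, and Pik3ip1, an inhibitor of PI3 kinase, rose by 1.22 and 1.003. Klf2, a quiescence factor of lymphocytes, went the other way and fell by 1.73 in Mirc11-/- cells and by 2.37 in wild-type cells. In stimulated cells 4 of the 12 were higher in Mirc11-/- than in wild-type cells (Irs2 by 0.70, Foxo1 by 0.45, Sesn3 by 0.36 and Sesn1 by 0.30), where 3.89% of all tested genes were. Without stimulated Mirc11-/- replicate 1 the count was 1 of the 12, against 209 of all genes, and with the covariate it was 0, against 12 of all genes. The covariate left 0 of the 12 called for stimulation in Mirc11-/- cells and 1 higher and 1 lower in wild-type cells.

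Targets of p53, to which Cdkn1a and Gadd45a belong, included genes called in either direction. Of 19 tested genes, 4 rose and 6 fell with stimulation in Mirc11-/- cells (median -0.09 on the log2 scale), where 23.5% of all tested genes rose and 22.1% fell. In wild-type cells 5 rose and 3 fell (median 0.00), where 16.1% of all tested genes rose and 15.7% fell. Trp53inp1, a p53-induced autophagy gene, rose by 1.56 in Mirc11-/- cells and by 1.51 in wild-type cells (edgeR adjusted p = 4.66e-07 and 9.62e-07), and the antiproliferative gene Btg2 rose by 1.04 and by 0.98. Sesn2, a stress-induced regulator of mTORC1, fell by 1.04 in Mirc11-/- cells and by 0.84 in wild-type cells. In stimulated cells Mdm2, the ubiquitin ligase for p53, was lower in Mirc11-/- cells (-0.39 ± 0.105, edgeR adjusted p = 0.0383), the only call among the 19. Over all tested genes 3.89% were higher and 5.13% lower in that comparison. Of the 19, 0 were called with the covariate or with no composition factor, and without stimulated Mirc11-/- replicate 1 there were 1 higher and 1 lower. With the covariate 3 of 19 were higher and 0 lower with stimulation in Mirc11-/- cells, and 6 higher and 2 lower in wild-type cells.

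Of 11 genes that link Gadd45 proteins to MAP kinases, 3 fell in Mirc11-/- cells, and 1 rose and 1 fell in wild-type cells. Over all tested genes 22.1% fell in Mirc11-/- cells, and 16.1% rose and 15.7% fell in wild-type cells. With no composition factor the wild-type counts were 0 higher and 3 lower. Mapk14, encoding p38 alpha, fell by 0.33 on the log2 scale in Mirc11-/- cells and by 0.27 in wild-type cells (edgeR adjusted p = 0.00621 and 0.0251), and Map2k3, a kinase of p38, rose by 0.35 in wild-type cells. With the covariate 0 of 11 were lower in Mirc11-/- cells and 0 in wild-type cells, and without stimulated Mirc11-/- replicate 1 the counts lower were 2 and 2. Gadd45gip1, which encodes a mitochondrial protein that binds Gadd45 proteins, was lower in Mirc11-/- cells in both states. It stood at 11.4, 19.3 and 17.6 CPM in stimulated Mirc11-/- libraries against 29.1, 29.7 and 31.3 CPM in stimulated wild-type libraries, and at 21.8, 23.8 and 21.2 CPM in unstimulated Mirc11-/- libraries against 35.9, 39.7 and 31.9 CPM in unstimulated wild-type libraries. No library overlapped between genotypes within a state. The log2 fold changes were -0.90 ± 0.151 in stimulated cells (edgeR adjusted p = 0.00427) and -0.69 ± 0.148 in unstimulated cells (edgeR adjusted p = 0.0413), and in unstimulated cells it was the only call among the tested genes of the 8 lists. In unstimulated cells 1 of the 11 genes was also lower with the covariate and without stimulated Mirc11-/- replicate 1, whereas in stimulated cells the covariate left 0. Over all genes 164 were lower in unstimulated cells with the covariate and 291 without that replicate, and 24 in stimulated cells with the covariate. In the main fit 0.796% of all tested genes were lower in unstimulated and 5.13% in stimulated cells. The distance of Gadd45gip1 from the deleted cluster was not examined, and the cause of its difference was not tested.

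Among 9697 named genes with a mean of at least 4 CPM, the 5 whose log2 levels over the 12 libraries were most like those of Gadd45b were Slc2a6, Stat5a, Pgk1-rs7, Dstyk and Abca1, with Pearson correlations of 0.994, 0.990, 0.990, 0.990 and 0.990. The 12 points fall into 2 clusters, stimulated and unstimulated, so the coefficient mostly restates that division and is a description. Slc2a6, a glucose transporter family gene, averaged 21.8 ± 4.73 CPM in stimulated and 1.64 ± 0.215 CPM in unstimulated Mirc11-/- cells, and 20.9 ± 2.67 CPM in stimulated and 1.93 ± 0.193 CPM in unstimulated wild-type cells (SD, n = 3 each). Stat5a, a transcription factor downstream of the IL-2 receptor, averaged 78.5 ± 6.68 CPM in stimulated and 27.2 ± 1.79 CPM in unstimulated Mirc11-/- cells, and 84.2 ± 8.91 CPM in stimulated and 27.7 ± 1.84 CPM in unstimulated wild-type cells. Abca1, the cholesterol exporter, averaged 55.1 ± 8.22 CPM in stimulated and 10.25 ± 1.025 CPM in unstimulated Mirc11-/- cells, and 54.9 ± 5.21 CPM in stimulated and 13.4 ± 2.045 CPM in unstimulated wild-type cells. Dstyk differed less, at 13.75 ± 0.607 CPM in stimulated and 7.08 ± 0.311 CPM in unstimulated Mirc11-/- cells. Pgk1-rs7 is a near copy of the glycolysis gene Pgk1 and was listed at 0 in all 6 unstimulated libraries, so its counts may depend on how reads were shared between the copies and no fold is given.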

How the data were processed

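The authors deposited a table of expected counts per gene made with RSEM 1.3.0, after bcl2fastq, Trim Galore 0.4.1 and Bowtie2 2.2.8 on GRCm38, per the submitters' processing notes; the library kit was Illumina TruSeq RNA on Trizol RNA, per the labels. All values were whole numbers, so none needed rounding. The annotation release and the setting for strand are not given in the sources used here. After a low-count filter (filterByExpr, by group) and TMM scaling, edgeR 4.0.16 in R 4.3.3 fitted a robust quasi-likelihood model over all 12 libraries, with 1 mean per group, for 5 contrasts. CPM use the TMM-scaled library size. Levels per kilobase use the union of exons in GENCODE vM21, which matched 50450 of the 50674 identifiers. Map2k7 had 2 identifiers, and the one with the larger total was used. The fit was also run on simulated counts with known changes in stimulated Mirc11-/- libraries only. That simulation held no outlying library and no background level tied to a group, so it does not bear on these features of the data.

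The 9 genes, the 8 gene lists and the tests were chosen with earlier results of these data known. Named genes are the 9 members, up to 4 called genes with the smallest p per list and contrast, of which the text gives a selection, and the 5 genes most like Gadd45b by Pearson correlation of log2(CPM + 1); Cdk4, Ccnd1, Cdkn1c and Rbl2, and Cdk6 and Klf2 for stimulation in Mirc11-/- cells, were added after their values were seen. Alternatives were DESeq2 1.42.0 size factors, no composition factor, no low-count filter, a stricter filter (CPM of at least 1 in at least 6 libraries), the DESeq2 Wald test, limma 3.58.1 voom, the vomeronasal covariate, replicate blocks, and each library left out in turn. Deviations from group means of stimulated and unstimulated wild-type libraries with the same number correlated at 0.249, 0.451 and 0.228, all over 0.1. With different numbers they correlated at -0.29 to 0.057. In Mirc11-/- cells the same-number values were 0.156, -0.0987 and 0.352. Over all pairs of groups, libraries with different numbers correlated at -0.39 to 0.44, so these values do not settle whether the numbers pair libraries. Totals of 15139281 to 25342991 counts per library set the precision, and intervals are 95% intervals of the fit.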

Additional observations from a re-analysis of the deposited data

How the results depend on the processing

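Of the calls on the 9 genes, those of Cdkn1b and Ccnd3 for stimulation in both genotypes, and of Gadd45g and Ccnd2 for stimulation in wild-type cells, kept their direction and side of the threshold under all 21 alternatives. With the vomeronasal covariate, 1 gene other than Gadd45b was higher and 1 lower for stimulation in Mirc11-/- cells, against 380 and 340 of all genes; for genotype in stimulated cells 0 were higher and 0 lower, against 12 and 24 of all genes, and in unstimulated cells 1 was lower. The cause was not tested. The covariate also put uncalled values on the other side of 0: for stimulation in Mirc11-/- cells Gadd45g at 0.84, for stimulation in wild-type cells Gadd45a at -0.16, Cdkn1a at 0.060 and Cdkn2d at 0.31, and for genotype in stimulated cells Gadd45b at 0.42 and Cdkn2d at 0.14; the interaction then had 1 lower gene. With no low-count filter, 1 gene other than Gadd45b was higher for stimulation in Mirc11-/- cells, where 6818 of all genes were higher; 2 were lower for genotype in unstimulated cells; 1389 of all genes were lower for genotype in stimulated cells; and the interaction had 15 higher and 32 lower genes. That setting also turned Cdkn2d to -0.081 for stimulation in Mirc11-/- cells, and Cdkn1b to -0.015 and Ccnd3 to -0.065 for genotype in stimulated cells. The DESeq2 Wald test gave 1457 lower genes for genotype in stimulated cells, 105 higher and 277 lower in unstimulated cells, where 2 of the 9 genes were lower, and 15 higher and 53 lower for the interaction. With no composition factor 1 of the 9 was lower for genotype in unstimulated cells, Cdkn1a passed for stimulation in wild-type cells at -0.27, Cdkn2d was -0.0068 for stimulation in Mirc11-/- cells and Gadd45b 0.034 for genotype in stimulated cells. With the stricter filter Gadd45g was 0.0055 for stimulation in Mirc11-/- cells, Gadd45b 0.010 for genotype in stimulated cells, and the interaction had 1 higher gene. Limma voom put Cdkn2d at -0.054 for stimulation in Mirc11-/- cells. The replicate block over all groups put that Cdkn2d value at -0.020, and the block within genotype put it at -0.040 and gave 3 higher and 10 lower genes for the interaction; beyond Cdkn2c in wild-type cells and the mitotic list (5 of 9 lower in each genotype) the block changed no other call on the 9 genes. Of 18 same-number pairs across groups, 8 correlated above 0.1 (range -0.40 to 0.45), and different-number pairs ranged from -0.39 to 0.44. Leaving out each library in turn gave 1 to 2 genes other than Gadd45b higher for stimulation in Mirc11-/- cells, 0 to 1 of the 9 higher for genotype in stimulated cells and 0 to 2 lower in unstimulated cells. Over all genes, the counts for genotype in stimulated cells were 77 (without stimulated wild-type replicate 2) to 1155 (without stimulated Mirc11-/- replicate 2) higher and 260 (without stimulated wild-type replicate 2) to 1242 lower; in unstimulated cells they were 17 (without unstimulated wild-type replicate 1) to 113 (without stimulated Mirc11-/- replicate 1) higher and 52 (without unstimulated Mirc11-/- replicate 2) to 291 (without stimulated Mirc11-/- replicate 1) lower; and the interaction had 0 to 2 higher and 0 to 17 (without stimulated wild-type replicate 1) lower. Uncalled values that crossed 0 in these fits were, for stimulation in Mirc11-/- cells, Gadd45g (-0.20 to 0.14), Cdkn2c (-0.042 to 0.34) and Cdkn2d (-0.24 to 0.25), and for stimulation in wild-type cells Gadd45a (-0.15 to 0.34) and Cdkn2d (-0.22 to 0.0085). For genotype in stimulated cells they were Gadd45b (-0.12 to 0.066), Cdkn1b (-0.077 to 0.16), Cdkn2d (-0.48 to 0.0010) and Ccnd3 (-0.034 to 0.084), in unstimulated cells Cdkn1b (-0.12 to 0.011) and Cdkn2c (-0.17 to 0.089), and for the interaction Cdkn1b (-0.025 to 0.22), Cdkn2c (-0.35 to 0.040) and Cdkn2d (-0.12 to 0.36). Depth limits Gadd45a in particular, at 10 to 41 counts per library.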
